A study of Mus musculus with 6 samples.

Results

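Mitochondrial iron-sulfur cluster assembly was followed through 9 genes: Nfs1, Lyrm4, Iscu, Glrx5, Bola1, Isca1, Isca2, Nfu1 and Bola3. They were picked out of the 55471 genes of a raw count table, of which 13044 had enough counts to be tested, and all 9 were among those tested. The genes were grouped by function, and the group was chosen on the knockout-against-control comparison of these same libraries, in which Bola1 was at 0.614 of the control level with libraries paired by replicate number. The values of the 9 genes in that comparison are therefore given as a description, with no test. The cells were a cultured mouse line of undifferentiated pleomorphic sarcoma, a soft-tissue tumour, and all libraries carried the label of metastatic cells. Total RNA was sequenced from 3 libraries of wild-type genotype, whose titles carry the tag AAV2, and from 3 libraries labelled Setd1a knockout, whose titles carry a number code in its place. Setd1a encodes a histone methyltransferase that acts at active promoters. The labels do not say what the tags stand for, whether the knockout is 1 clone, or whether replicates were separate cultures. The tag and the knockout cannot be told apart, and the spread behind each p-value is that of these libraries, which may be technical.

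Iron-sulfur clusters are cofactors of iron and inorganic sulfide that sit in proteins of respiration, DNA synthesis and repair, and tRNA modification. In the mitochondrion, the cysteine desulfurase NFS1, held stable by LYRM4, passes sulfur to the scaffold protein ISCU, on which a cluster is built. The glutaredoxin GLRX5 takes over the cluster, and ISCA1 and ISCA2 help form the larger kind. NFU1 and BOLA3 deliver clusters to late targets such as lipoic acid synthase, and BOLA1 is a BolA-family partner of GLRX5.

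Library totals lay between 17749533 and 18272622 counts. Setd1a itself was at 71.0, 75.3 and 73.5 CPM (counts scaled to library size) in control replicates 1 to 3 and at 53.2, 68.7 and 56.3 CPM in the knockouts, so its transcript was present in every library labelled as knockout. Its groups did not overlap, but the log2 change of -0.30 ± 0.12 (SE) did not pass edgeR's quasi-likelihood test (adjusted p = 0.426, and 0.0913 with replicates as a block). Knockout is therefore used throughout for the libraries labelled so. Of its exonic bases, 51.8% are shared with Gm49388, which makes its level uncertain. All 9 mesenchymal markers, among them Vim and Col1a1, were above 1 CPM in at least 1 library, and they summed to 8830 to 9279 CPM in control libraries and 7570 to 8785 CPM in knockouts, without overlap. Leukocyte markers summed to 20.3 to 22.6 CPM in control libraries and 19.8 to 28.3 CPM in knockouts, with 4 of 7 under 1 CPM in every library. Endothelial markers summed to 1.05 to 2.41 CPM and 2.50 to 3.25 CPM, again without overlap, with 4 of 5 under 1 CPM in every library. Epithelial markers summed to 50.8 to 86.1 CPM in control libraries and 46.2 to 86.5 CPM in knockouts, with 3 of 5 under 1 CPM in every library. All 5 skeletal muscle and all 4 erythroid markers were under 1 CPM in every library. Transcripts of the mitochondrial genome held 2.50% to 3.03% of the counts in the controls and 3.48% to 3.91% in the knockouts. That share, too, differed between the groups without overlap, and the part of these values in the differences below was not tested.

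The clearest differences within the group were in its BolA genes. Bola1 was at 0.613 and Bola3 at 0.744 of the control level in the knockout libraries, and for both genes the highest knockout library was under the lowest control. For the other 7 genes the libraries of the groups overlapped, with ratios between 0.878 for Lyrm4 and 1.11 for Nfs1. Groups without overlap were not rare: over all genes tested, 7.77% had them with the knockout lower and 7.49% with the knockout higher. Over all 9 genes the median log2 change was -0.10, beside 0.00 over the 13044 genes tested, and 7 of the 9 lay below 0, beside 49.8% of all genes tested.

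**Figure D1:**
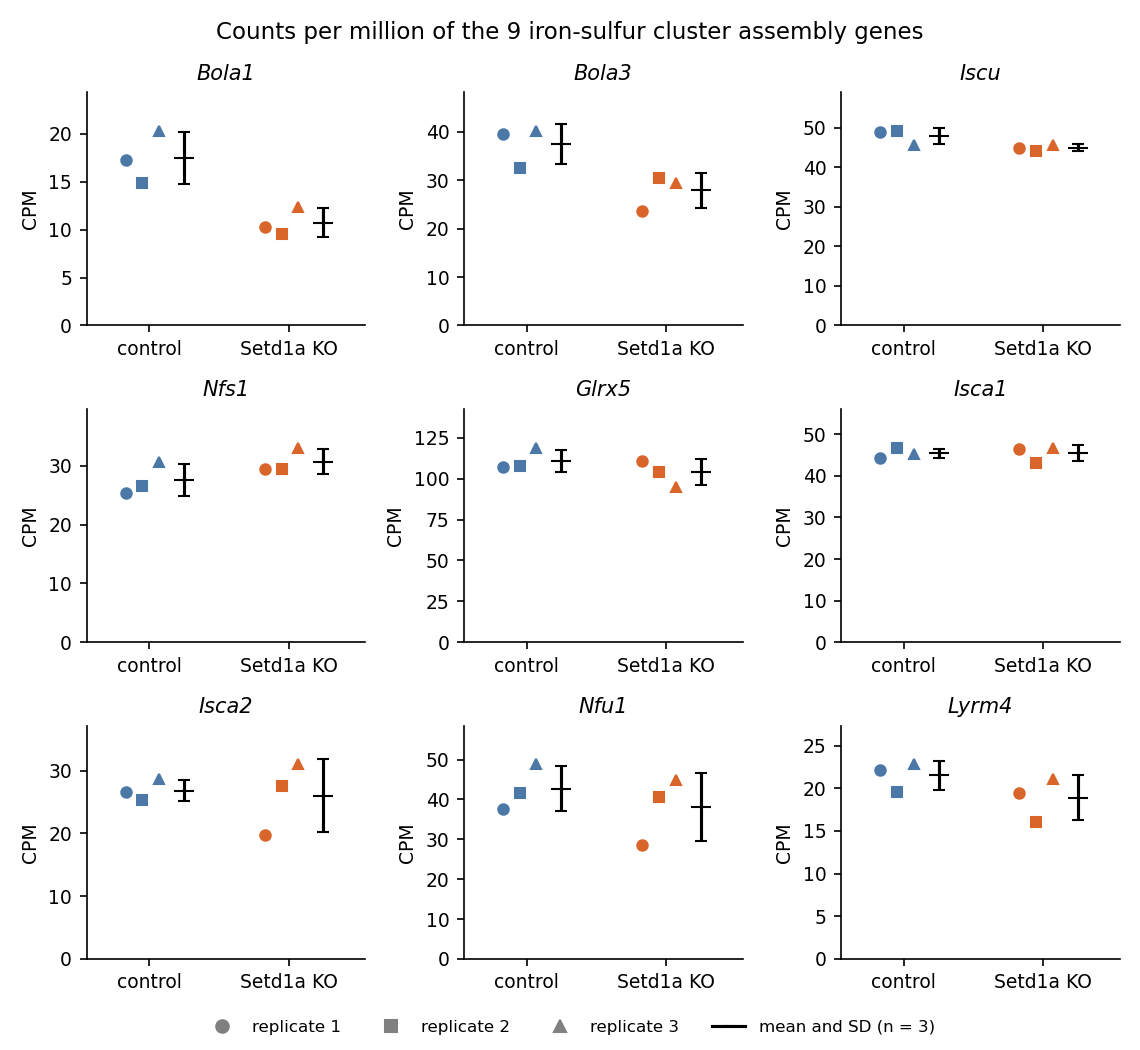
CPM of each of the 9 genes (vertical axes, each from 0) in the control and Setd1a knockout libraries; marker shapes give the replicate number, and bars the mean and SD of 3 libraries. Bola1 and Bola3 are the panels in which the groups do not overlap, with Bola1 from 14.9 to 20.3 CPM in control and from 9.49 to 12.4 CPM in knockout libraries.

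The promoter sequences of Bola1 and Bola3, the members with non-overlapping groups, are shown beside that of Isca1, whose log2 change was 0.00. Each window runs from 250 bases before to 50 bases after a RefSeq start site on GRCm38.p6, read 5′ to 3′ on the gene's strand. Capitals mark matches to the motifs searched on either strand, which were those of ETS factors with the letters CCGGAAG, of YY1 with AAGATGGCG, the core of the NRF1 site with GCGCATGC, the E-box bound by MYC and USF proteins with CACGTG, the GC box bound by SP1 with GGGCGG, the CCAAT box bound by NF-Y, and the TATA box of core promoters with TATAAA. The Bola1 window is chr3:96197537-96197836 on the minus strand, that of Bola3 is chr6:83348897-83349196 on the plus strand and that of Isca1 is chr13:59769740-59770039 on the minus strand.

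Bola1: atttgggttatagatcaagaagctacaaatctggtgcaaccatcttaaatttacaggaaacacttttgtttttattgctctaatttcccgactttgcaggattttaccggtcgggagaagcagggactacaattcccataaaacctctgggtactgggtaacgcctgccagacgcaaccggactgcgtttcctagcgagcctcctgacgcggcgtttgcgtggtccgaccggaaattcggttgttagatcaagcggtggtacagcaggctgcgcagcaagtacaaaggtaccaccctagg
Bola3: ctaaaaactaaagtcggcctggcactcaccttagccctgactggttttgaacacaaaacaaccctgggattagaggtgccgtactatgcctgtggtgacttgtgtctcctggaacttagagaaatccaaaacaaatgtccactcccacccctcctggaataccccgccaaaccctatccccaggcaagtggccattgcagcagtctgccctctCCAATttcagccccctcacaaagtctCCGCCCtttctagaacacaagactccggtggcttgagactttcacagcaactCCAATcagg
Isca1: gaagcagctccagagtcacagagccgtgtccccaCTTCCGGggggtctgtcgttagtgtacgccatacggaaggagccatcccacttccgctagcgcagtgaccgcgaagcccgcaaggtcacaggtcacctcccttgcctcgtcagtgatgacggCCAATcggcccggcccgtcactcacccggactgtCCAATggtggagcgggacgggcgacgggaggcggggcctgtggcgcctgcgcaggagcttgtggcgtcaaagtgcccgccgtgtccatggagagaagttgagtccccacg

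The Bola1 window held none of the 7 motifs and 17 CpG dinucleotides. The Bola3 window held 1 GC box and 2 CCAAT boxes and 5 CpG, the fewest of the members, whose highest value was 35 for Nfs1. Bola3 has 3 annotated RefSeq start sites, however, and the window of the most downstream one, chr6:83349226-83349525, held 30 CpG. The Isca1 window held 27 CpG, 1 ETS motif and 2 CCAAT boxes. RefSeq windows were matched for 8 of the 9 genes, all but Iscu, and their median was 23 CpG, beside 7 over all 32817 windows of this length, which include noncoding and predicted genes. The NRF1 core, the E-box and the TATA box were found in 0 of the 8 windows, and in 2.71%, 7.15% and 13.6% of all windows. The ETS motif was in 3 of the 8 and in 8.86% of all, the YY1 motif in 1 (Isca2) and in 1.40% of all, the GC box in 4 and in 35.6%, and the CCAAT box in 5 and in 37.4%. A match is a description of letters only, and the libraries did not measure binding or histone marks at these windows. Start sites in use were not measured either, and for Bola1 the GENCODE gene model also holds a transcript that starts 22123 bases upstream of the RefSeq start site.

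The cysteine desulfurase gene Nfs1 (chromosome 2, 156123639 to 156144186, minus strand; GRCm38 for all positions) was at 25.4, 26.6 and 30.7 CPM in control replicates 1 to 3 and at 29.5, 29.4 and 33.1 CPM in the knockouts. The knockout values lay in the upper part of the control range or just above it, and the groups overlapped. The log2 change was 0.15 ± 0.12 (SE), with a 95% interval from -0.12 to 0.43, the highest change of the 9 genes. The exons of Nfs1 share 7.09% of their bases with Gm28036 and 4.10% with Romo1, so a part of its reads may be counted elsewhere.

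Lyrm4 (chromosome 13, 35978395 to 36117526, minus strand), the stabilising subunit of NFS1, was at 22.1, 19.6 and 22.8 CPM in the controls and at 19.5, 16.0 and 21.1 CPM in the knockouts. Each knockout library was below the control of the same number, but knockout replicate 3 lay above control replicate 2, so the groups overlapped. The log2 change was -0.19 ± 0.14 (SE), with a 95% interval from -0.50 to 0.13. A stretch of 5.51% of its exonic bases is shared with Fars2 on the other strand.

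The scaffold gene Iscu (chromosome 5, 113772748 to 113778288, plus strand) varied little between libraries of a group. It was at 48.9, 49.2 and 45.6 CPM in the controls and at 44.9, 44.2 and 45.7 CPM in the knockouts. Knockout replicate 3 and control replicate 3 were nearly equal, and the other control libraries lay above all knockouts. The log2 change was -0.09 ± 0.10 (SE), with a 95% interval from -0.32 to 0.14.

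The carriers that follow the scaffold differed from each other. Glrx5 (chromosome 12, 105032688 to 105042906, plus strand), the most abundant of the 9, was at 107, 108 and 119 CPM in the controls and at 111, 104 and 95.2 CPM in the knockouts. Replicate 3 was the highest control and the lowest knockout, and the other 4 libraries were close together. Its log2 change was -0.10 ± 0.10 (SE), with a 95% interval from -0.33 to 0.13.

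Bola1 (ENSMUSG00000015943, chromosome 3, 96196588 to 96219709, minus strand) was at 17.3, 14.9 and 20.3 CPM in the controls and at 10.3, 9.49 and 12.4 CPM in the knockouts, from 171 to 363 counts per library. Within each group replicate 3 was the highest and replicate 2 the lowest, and the log2 ratio of knockout to control was -0.74, -0.65 and -0.71 for replicates 1, 2 and 3. The means were 17.5 ± 2.72 CPM and 10.7 ± 1.52 CPM (SD, n = 3), and the log2 change was -0.71 ± 0.17 (SE), with a 95% interval from -1.08 to -0.34. In the fit blocked on replicate, the SE was 0.11 and the interval ran from -0.95 to -0.46. Bola1 has the shortest transcript of the 9 genes, at 995 bases. The 432 protein-coding genes tested with a longest transcript of up to 1000 bases had a median log2 change of -0.06, with a 5th percentile of -0.43, and the 1446 genes over 6500 bases had a median of 0.05. No exonic base of Bola1 is shared with another annotated gene.

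The late-acting genes again differed from each other. Isca1 (chromosome 13, 59755409 to 59769810, minus strand) was at 44.4, 46.6 and 45.3 CPM in the controls and at 46.4, 43.2 and 46.8 CPM in the knockouts. The groups lay on top of each other, and the log2 change was 0.00 ± 0.10 (SE), with a 95% interval from -0.23 to 0.23.

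Isca2 (chromosome 12, 84773251 to 84775088, plus strand), which acts with ISCA1, was at 26.6, 25.3 and 28.6 CPM in the controls and at 19.7, 27.5 and 31.0 CPM in the knockouts. Knockout replicate 1 was the lowest library and knockout replicate 3 the highest, so the control values lay inside the knockout range. The log2 change was -0.04 ± 0.16 (SE), and it was 0.13 without knockout replicate 1.

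Nfu1 (chromosome 6, 87009236 to 87028461, plus strand) was at 37.6, 41.6 and 48.8 CPM in the controls and at 28.5, 40.7 and 45.0 CPM in the knockouts. Replicate 1 was the lowest and replicate 3 the highest in both groups, and knockout replicate 1 stood below all other libraries. The log2 change was -0.16 ± 0.17 (SE), and 0.02 without knockout replicate 1.

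Bola3 (ENSMUSG00000045160, chromosome 6, 83349147 to 83360136, plus strand), whose product works beside NFU1, was at 39.5, 32.6 and 40.2 CPM in the controls and at 23.7, 30.5 and 29.4 CPM in the knockouts. The groups did not overlap, but the nearest libraries, both of replicate 2, were close. The log2 ratios within pairs were -0.74, -0.10 and -0.45, so unlike Bola1 the difference varied over the pairs. The means were 37.5 ± 4.21 CPM and 27.9 ± 3.66 CPM (SD, n = 3), and the log2 change was -0.43 ± 0.14 (SE), with a 95% interval from -0.74 to -0.12. With the replicate block and without pair 1 it was -0.28, and without pair 2 it was -0.58.

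**Figure D2:**
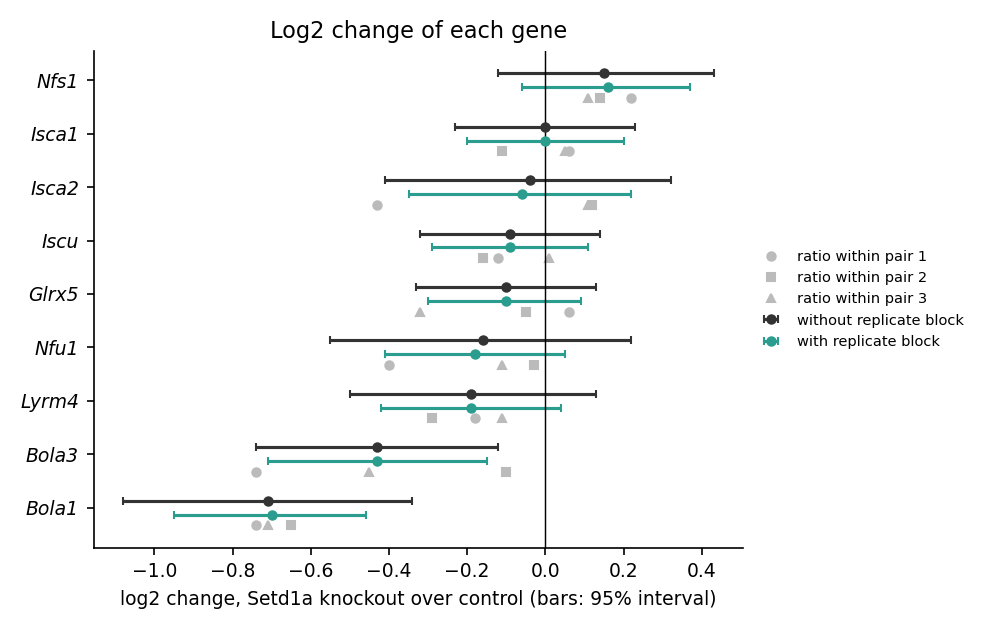
Log2 change of each gene, knockout over control (horizontal axis), with 95% intervals of the edgeR fits without (black) and with (green) the replicate block, and the ratio within each pair as grey markers. Bola1 stands lowest at -0.71 with its 3 pair ratios close together, and Bola3 follows at -0.43 with pair ratios from -0.74 to -0.10; the intervals are a description, since the genes were chosen on this comparison.

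Across all genes, edgeR's quasi-likelihood test without pairing called 0 genes at an adjusted p under 0.05, which is 0% of those tested, while an unadjusted p under 0.05 was reached by 718 genes in the higher and 588 in the lower direction; limma-voom also called 0, and DESeq2 called 83 higher and 39 lower. With the replicate block, edgeR called 111 genes lower, 0.851% of those tested, and 187 higher, 1.43%. Of the 9 members 1, Bola1, was among the lower calls with the block and 0 among the higher. Without pair 3 the blocked fit called 0 genes, so every call with the block in the text was lost when that pair was left out. Groups that did not overlap, with the knockout lower, were found in 7.77% of all genes tested and in 2 of the 9 members, and with the knockout higher in 7.49% and in 0 members. Since the genes were chosen on this comparison, nothing is read from these counts. The spread between replicates was ordinary: the biological coefficient of variation had a median of 0.129 over the 9 genes, from 0.101 for Iscu to 0.156 for Nfu1, and of 0.138 over all genes tested.

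Levels between genes were compared as RPKM, CPM per kilobase of exon. The order in the controls was not used in choosing the genes. Knockout values in RPKM are the same CPM divided by a fixed length, so they repeat the comparison on which the genes were chosen. In the controls Glrx5 was highest at 30.2 ± 1.83 RPKM and Iscu followed at 22.0 ± 0.930 RPKM (SD, n = 3), each above the next gene in every library. Bola1 came next at 16.2 ± 2.52 RPKM, with Isca2 at 14.6 ± 0.905 RPKM overlapping it. Bola3 at 11.7 ± 1.31, Lyrm4 at 10.3 ± 0.812, Nfu1 at 8.85 ± 1.17 and Nfs1 at 7.63 ± 0.761 RPKM (SD, n = 3) formed a series in which each neighbour overlapped the next. Isca1 was lowest at 4.26 ± 0.103 RPKM (SD, n = 3). Its exons span 10680 bases when all transcripts are joined, against 4060 bases in its longest transcript, and with the longest transcripts as lengths 3 of the 9 genes, Glrx5, Iscu and Bola1, kept their place in the order.

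In the knockouts Bola1 was at 9.92 ± 1.40 RPKM (SD, n = 3) and stood at place 4 of 9, behind Isca2, or at place 8 with the longest transcripts as lengths. Its part of the summed RPKM of the 9 genes was 12.9% in the controls and 8.92% in the knockouts. That of Glrx5 was 24.0% and 25.3%, and that of Iscu 17.5% and 18.6%. These parts depend on the sum, and the mean levels of both genes were not higher in the knockouts. Glrx5 was at 30.2 RPKM in control and 28.1 RPKM in knockout libraries, and Iscu at 22.0 and 20.7 RPKM. The sum of the 9 genes was 124, 119 and 134 RPKM in the controls and 106, 110 and 117 RPKM in the knockouts, without overlap. It contains the lower knockout means of Bola1 (16.2 RPKM in control, 9.92 RPKM in knockout) and Bola3 (11.7 and 8.68 RPKM). The sum without these genes was not examined. Since the genes were chosen on this comparison, nothing is read from the sum or from the place and part of Bola1 in the knockouts. Lower levels in every cell and a lower share of cells with the transcript cannot be told apart in bulk RNA.

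**Figure D3:**
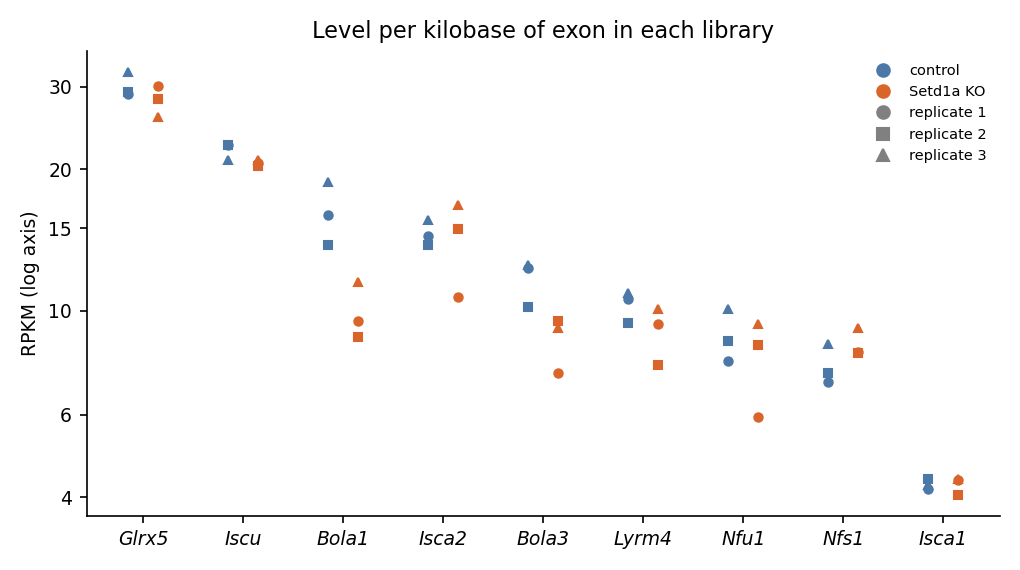
RPKM of each gene in each library (vertical log axis), with genes ordered by their control mean; colours give the group and marker shapes the replicate. Glrx5 and Iscu stand above the rest in both groups, and Bola1 goes from 16.2 RPKM in the controls to 9.92 RPKM in the knockouts.

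The rest of the pathway was described through 7 lists written by function, with 91 of their 94 different genes tested; Fech and Lias each stand in 2 lists. Without pairing 0 of the 91 were called by edgeR. An unadjusted p under 0.05 was reached by 3 in the higher and 7 in the lower direction, beside 718 and 588 of all 13044 genes tested. With the replicate block 2 were lower, Elp3 among them, and 0 were higher, beside 0.851% and 1.43% of all genes tested. Groups did not overlap in 14 of the 91 with the knockout lower and in 4 with it higher, beside 7.77% and 7.49% of all genes tested. Nothing is read from these counts. The median log2 change of the 91 genes was 0.00, as over all genes tested. Adjusted p-values for list genes are those of edgeR's quasi-likelihood test with Benjamini-Hochberg adjustment over all genes tested.

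Of the 11 tested genes of the other mitochondrial machinery 6 lay below 0. Their log2 changes ran from -0.32 to 0.13 with a median of -0.02, and 0 passed the test with or without the block. Ndufab1, the acyl carrier protein that binds LYRM4 in the desulfurase complex, was at 114, 108 and 124 CPM in the controls and at 82.9, 95.2 and 107 CPM in the knockouts. The groups did not overlap, and the log2 change was -0.28 ± 0.12 (SE; adjusted p = 0.458, and 0.0910 with the block). The co-chaperone gene Hscb had a log2 change of -0.32 ± 0.24 and the mitoferrin gene Slc25a37 one of 0.12 ± 0.10 (SE), at adjusted p = 0.754 and 0.788. The ferredoxin gene Fdx2, listed as Fdx1l, had too few counts to be tested, at 0.204 CPM in the controls, and 72.7% of its exonic bases are shared with Gm38431.

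In the cytosolic machinery, the remaining BolA gene stood lowest. Bola2, whose product works with the glutaredoxin GLRX3 in the cytosol, was at 59.5, 46.5 and 57.0 CPM in the controls and at 43.6, 40.9 and 46.1 CPM in the knockouts. Control replicate 2 was just above knockout replicate 3, the nearest libraries of groups that did not overlap. The log2 change was -0.32 ± 0.12 (SE; adjusted p = 0.420, and 0.0991 with the block), and 8.19% of its exonic bases are shared with Slx1b. Of the 11 genes of this list 5 lay below 0, the median was 0.01 and 0 passed either test. The scaffold genes Nubp1 and Nubp2 had log2 changes of -0.15 ± 0.10 and 0.15 ± 0.13 (SE), at adjusted p = 0.708 and 0.799, and 36.9% of the exonic bases of Nubp1 are shared with Tvp23a.

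Among mitochondrial proteins that carry clusters, 11 of 15 genes lay below 0, with a median of -0.10, and 0 passed the test with or without the block. Cisd1, which encodes the outer-membrane protein mitoNEET, was at 47.2, 47.1 and 55.3 CPM in the controls and at 37.3, 41.0 and 40.0 CPM in the knockouts. The groups did not overlap, and the gene stood at -0.34 ± 0.11 on the log2 scale (SE; adjusted p = 0.360, and 0.0873 with the block). The complex I subunit genes Ndufs8 and Ndufs7 had log2 changes of -0.31 ± 0.15 and -0.19 ± 0.10 (SE), at adjusted p = 0.512 and 0.598.

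Among 22 tested genes for cytosolic and nuclear cluster proteins 12 lay below 0 and the median was -0.04. Elp3, the catalytic subunit of the Elongator complex that modifies tRNA, was at 82.7, 87.3 and 84.6 CPM in the controls and at 60.5, 65.1 and 70.4 CPM in the knockouts. All knockouts lay below all controls, and Elp3 fell with the block (log2 change -0.38 ± 0.08, SE; adjusted p = 0.0427) but did not pass without it (adjusted p = 0.252). Xdh, which encodes xanthine dehydrogenase, had means of 23.6 ± 2.79 CPM (control) and 31.6 ± 1.15 CPM (knockout; SD, n = 3; edgeR adjusted p = 0.319, and 0.0597 with the block). Every knockout of Xdh lay above every control. The interferon-inducible gene Rsad2, which encodes the antiviral enzyme viperin, was at 10.1, 4.30 and 4.88 CPM in the controls and at 5.73, 27.1 and 34.3 CPM in the knockouts. Knockout replicate 1 lay inside the control range and the other knockouts far above it (adjusted p = 0.321).

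The lipoate list held genes of lipoate synthesis and transfer, Lias among them, and of lipoate-dependent enzyme complexes. Its median was 0.01 over 14 genes, and 0 passed either test. The octanoyltransferase gene Lipt2 had a log2 change of -0.24 ± 0.18, Pdha1 of the pyruvate dehydrogenase complex one of -0.13 ± 0.10 and its partner Pdhb one of 0.16 ± 0.13 (SE), at adjusted p = 0.759, 0.762 and 0.777. Of the exonic bases of Pdha1, 16.1% are shared with Map3k15.

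For iron uptake and storage, 2 of 12 tested genes lay below 0 and the median was 0.06, with 0 past either test. The ferrireductase gene Steap3 had a log2 change of 0.37 ± 0.19, the heme oxygenase gene Hmox1 one of 0.41 ± 0.22, and Ireb2, which encodes an iron-regulatory protein, one of 0.10 ± 0.10 (SE), at adjusted p = 0.558, 0.598 and 0.858. Hmox1 was the nearest of them to the threshold with the block (adjusted p = 0.0622).

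Of the 8 heme synthesis genes 5 lay below 0, with a median of -0.07. Alas1, the entry enzyme of the pathway, had means of 36.3 ± 3.15 CPM (control) and 43.4 ± 1.88 CPM (knockout; SD, n = 3; edgeR adjusted p = 0.485). Every knockout of Alas1 lay above every control. Uros stood at -0.32 ± 0.18 on the log2 scale (SE; adjusted p = 0.592), with every knockout below every control.

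**Figure D4:**
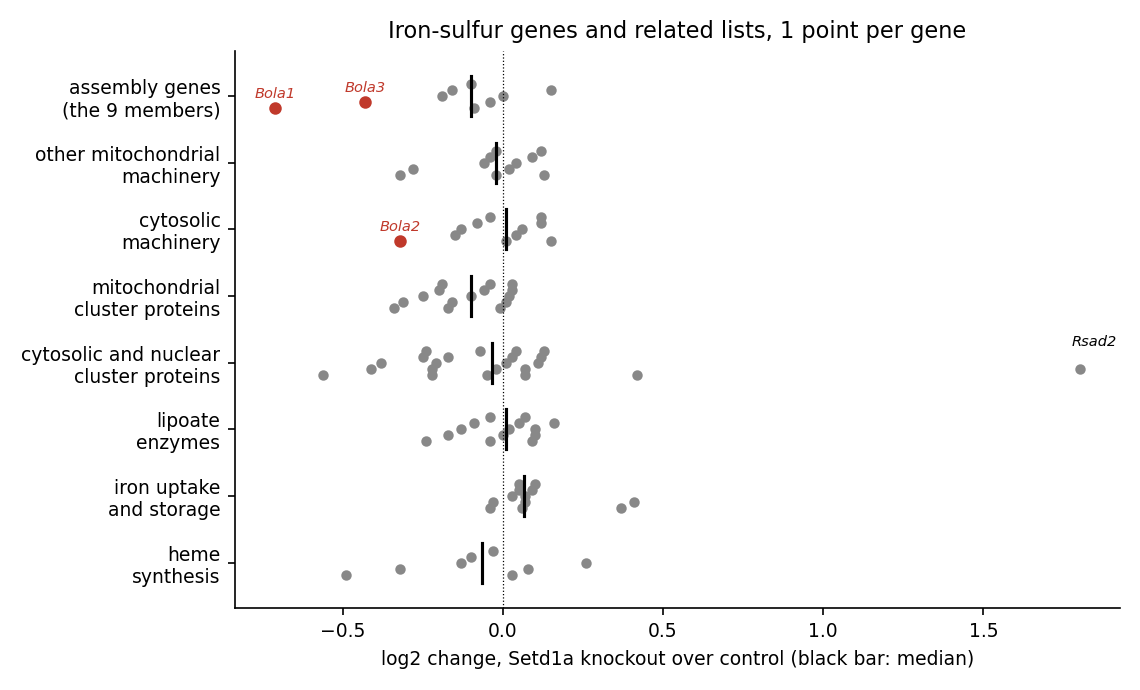
Log2 change, knockout over control (horizontal axis), of the 9 assembly genes and of the tested genes of 7 related lists, 1 point per gene with the median as a black bar. The BolA genes are in red, with Bola1 at -0.71, Bola3 at -0.43 and Bola2 at -0.32. The list medians lie between -0.10 and 0.06, but single list genes run from -0.56 to 1.80. The lowest of them lies below Bola3, and Elp3 at -0.38 and Cisd1 at -0.34 lie below Bola2. Of the 91 tested list genes 45 lie below 0.

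On the chromosome, Bola1 lies between Sv2a, a synaptic vesicle gene 1067 bases away, and the histone gene Hist2h2be 1410 bases from the far end of its longest gene model. Hist2h2be was at 1.88, 1.84 and 2.69 CPM in the controls and at 3.03, 4.11 and 5.06 CPM in the knockouts. All knockouts were above all controls, and it rose with the block (log2 change 0.93 ± 0.27 without it, SE; adjusted p = 0.308 without and 0.0422 with the block). Reads of histone genes can match near-identical copies, so its level is uncertain. Sv2a had means of 0.985 ± 0.327 CPM (control) and 0.717 ± 0.218 CPM (knockout; SD, n = 3; edgeR adjusted p = 0.798). Of the other neighbours, Tet3 beside Bola3 had a log2 change of 0.09 and Mob1a on its other side one of 0.23, with every knockout above every control (edgeR adjusted p = 0.470). Romo1 and Fars2, which share exonic bases with Nfs1 and Lyrm4 on the opposite strand, had log2 changes of 0.05 and -0.18. Rpp40, on the other side of Lyrm4, stood at -0.27 on the log2 scale, with every knockout below every control (edgeR adjusted p = 0.517).

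A window of 100000 bases on either side of Bola1 was then examined, a choice made after the values were seen. It held 8 other tested genes. Mtmr11, a myotubularin-related gene 24870 bases away, was at 37.7, 32.6 and 45.1 CPM in the controls and at 21.5, 23.1 and 26.7 CPM in the knockouts. Its groups did not overlap, and it fell with the block (log2 change -0.69 ± 0.10, SE; adjusted p = 0.0226) but did not pass without it (adjusted p = 0.180). Of its exonic bases 37.8% are shared with the antisense gene Gm17690, which was at 1.82 CPM in control and 0.974 CPM in knockout libraries, and reads of the pair cannot be told apart without the strand setting. The splicing factor gene Sf3b4, which lies between Mtmr11 and Bola1, had a log2 change of -0.03 ± 0.12, and Otud7b one of 0.02 ± 0.12 (SE). On the histone side Hist2h3c2 had a log2 change of 1.72 ± 0.43 from 0.390 CPM in the controls, and the predicted gene Gm42743, which shares exonic bases with the histone gene Hist2h2bb, one of 1.74 ± 0.32 from 0.594 CPM (SE; adjusted p with the block 0.0589 and 0.0242).

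**Figure D5:**
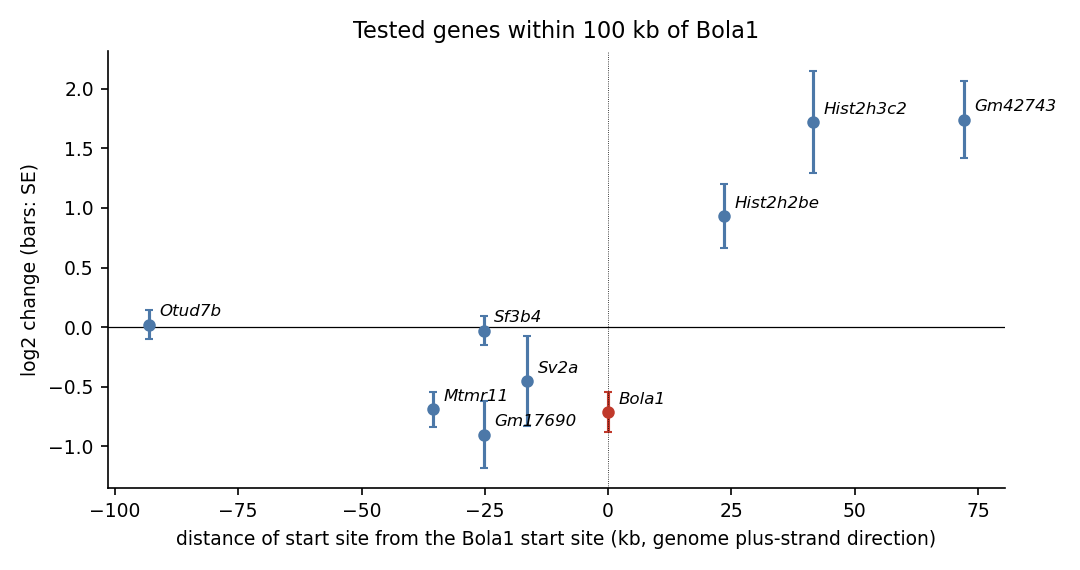
Log2 change, knockout over control, with its SE (vertical axis) of Bola1 and of the 8 other tested genes within 100000 bases, by distance between start sites in kilobases. Bola1 at -0.71 and Mtmr11 at -0.69 lie below 0, and the histone genes lie above 0. Between the start sites of Mtmr11 and Bola1 lie those of Sf3b4 at -0.03, Gm17690 at -0.90 and Sv2a at -0.45. Gm17690 and Sv2a are at low levels, with control means of 1.82 and 0.985 CPM.

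By its pattern over the 6 libraries, Bola1 was most like Trappc5, Six5, Nrn1, Rpl10a and Mtmr11, with Pearson r of logged CPM of 0.993, 0.991, 0.986, 0.986 and 0.985 among 9598 genes with a mean of at least 5 CPM. These points share 2 groups and 6 libraries, so any gene that was lower in the knockouts and lowest in replicate 2 of the controls comes out high. The genes differ in the size of their change, from -0.19 for Rpl10a, a ribosomal protein gene at 610 CPM in the controls, to -0.69 for Mtmr11. By Spearman's rho, 29 genes tied at 1, with 4 of the 5 among them and Mtmr11 at 0.943. Among the members the Pearson r with Bola1 was 0.858 for Bola3 and 0.828 for Lyrm4, and it went down to -0.272 for Nfs1.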

How the data were processed

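RNA of 3 control and 3 Setd1a knockout libraries was sequenced. The authors deposited raw counts for Ensembl genes, as whole numbers without normalization, and the submitters' processing notes name STAR, featureCounts, DESeq and the mm10 build; for versions, annotation and strand setting, nothing is given in the sources used here. Of 55471 identifiers, 55230 matched GENCODE M21 (GRCm38), which gave symbols, positions and exon lengths; promoter windows are RefSeq's for GRCm38.p6.

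The test was that of edgeR 4.0.16 under R 4.3.3 (scaling by TMM, filterByExpr, two-sided quasi-likelihood test, Benjamini-Hochberg adjustment over all 13044 genes tested, threshold 0.05). SEs are the log2 change divided by the root of the F statistic, and CPM were logged with a prior count of 2. DESeq2 1.42.0, limma-voom (limma 3.58.1), other scaling and filters, a replicate block and leaving out libraries were alternatives. Same-numbered libraries deviated together (r = 0.15, 0.464 and 0.383, all above the limit of 0.1), and libraries of different number gave r from -0.446 to 0.0531. Deviations were centred within each group, so r of both signs can arise without true pairs. The numbers were treated as pairs from the data alone, and blocked values stand where they change a call. Within groups, pairs of libraries differed beyond sampling noise (chi-square per degree of freedom 21.6 to 40.0). Library totals of 17749533 to 18272622 counts set the precision. The steps were tested on simulated data. Those data were drawn from the fit with the replicate block, so they cannot decide whether the real libraries are paired.

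The members and lists were chosen with earlier results of these data known. Named by rule were the 9 members, Setd1a, from each list the 3 genes lowest in raw p without the block, the neighbours of Bola1 and the 5 genes most like it (1 list gene is not reported here); Fdx2 and the genes near Bola1 were added after their values were seen, as were further neighbours.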

Additional observations from a re-analysis of the deposited data

How the results depend on the processing

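Of the 15 alternatives to the edgeR fit without pairing, none changed the sign of Bola1 (log2 change from -0.82 to -0.59), Bola3 (-0.58 to -0.28), Iscu (-0.15 to -0.04), Nfs1 (0.09 to 0.24), Glrx5 (-0.19 to -0.01) or Lyrm4 (-0.28 to -0.07). Nfu1 changed sign in 1 (-0.30 to 0.02) and Isca2 in 3 (-0.19 to 0.13), and Isca1, at 0.00, in 11 (-0.03 to 0.07).

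Counts moved most with the pairing. Without it 0 genes were called higher and 0 lower, against 187 and 111 with the replicate block, with 1 member (Bola1) and 2 list genes lower. The paired fit called 507 higher and 207 lower without pair 1 (1 member, with 3 list genes higher and 1 lower), 140 and 54 without pair 2 (1 member) and 0 without pair 3. DESeq2 called 83 and 39 (1 member, Bola1, and 1 list gene lower), and 62 and 12 were called with no filter on low counts (0 members, 1 list gene higher, Rsad2). Leaving out single libraries gave 0 to 30 higher calls, 0 to 1 lower, 0 members and 0 to 1 list genes higher; all came without knockout replicate 1. RLE size factors, limma-voom and a minimum mean of 5 CPM called 0. The cause was not tested. With longest transcripts as lengths, 3 of 9 genes kept their place in the order of levels.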
